A study of Rattus norvegicus with 9 samples.

Results

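The genes described here are the Wnt ligands, their receptors and co-receptors, the secreted antagonists and the central effectors of Wnt signalling, as they were measured in the rat in whole blood, in hippocampus (HC) and in prefrontal cortex (PFC). Genes were chosen by their symbols in the array annotation: every Wnt, Fzd, Sfrp or Dkk symbol followed by a digit, the co-receptors Lrp5 and Lrp6, and Ctnnb1, Axin1, Axin2, Apc, Lef1, Tcf7 and Tcf7l1. This gave 42 genes of 14506 that had a probe set with exactly 1 symbol. They comprised 17 ligands, 10 receptors, 8 antagonists, 4 members of the beta-catenin complex and 3 nuclear factors. A further nuclear factor, Tcf7l2, was also sought but had no probe set with exactly 1 symbol, so nothing is said about it here. The 42 genes were read by 44 of 15310 such probe sets. Tcf7l1 had 3 probe sets, of which the one with the highest mean over all arrays was used.

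RNA came from untreated male Wistar rats, numbered 2, 5 and 7, which had arrived at 6 weeks of age and were housed for 1 week. Blood was stabilized in PAXgene tubes, and HC and PFC were punched from frozen coronal sections, so a punch can hold neighbouring tissue. Each of the 9 samples was hybridized to 1 Rat Gene 1.0 ST array, or 3 arrays for each tissue, and samples with the same number came from 1 animal. The labels mention 6 rats and the methods 4, of which 3 were analysed here. The values are RMA (robust multi-array average) values on the log2 scale, where a difference of 1 is a doubling.

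Wnt proteins are secreted, lipid-modified ligands that bind Frizzled receptors and the co-receptors Lrp5 and Lrp6. Without a ligand, a complex that includes Axin and Apc marks beta-catenin (Ctnnb1) for breakdown. With a ligand, beta-catenin accumulates, enters the nucleus and switches target genes on together with the TCF/LEF factors. Other Wnt signals act without beta-catenin, on cell polarity and on the growth of axons and dendrites. In the adult brain the pathway is known for its part in hippocampal neurogenesis, synapses and the blood-brain barrier, and in blood for T cell development.

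In short, the nuclear factors Lef1 and Tcf7 were far higher in blood than in either brain region, whereas the antagonist Dkk3, the receptor Fzd3 and the scaffold gene Apc were far higher in brain, also under the other scaling described below. Between the brain regions, the ligands Wnt2 and Wnt4 were higher in HC. Wnt7b was also called higher in HC, and the antagonist Sfrp4 and the ligand Wnt16 higher in PFC, but these 3 calls were lost under panel scaling and in most fits without 1 array or 1 rat. A gene is called when its adjusted p is under 0.05 (limma over all 29214 probe sets with values, Benjamini-Hochberg adjustment). In HC against blood 12 of the 42 genes were higher, 23 were lower and 7 were not called, where 29% of all probe sets were higher and 46.5% lower. In PFC against blood 11 were higher, 23 lower and 8 not called, where 28.7% and 47% of all probe sets were. The median difference of the 42 genes was −0.32 in HC and −0.31 in PFC, and that of all probe sets −0.30 and −0.31. Both comparisons used the same blood arrays and are therefore given side by side.

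Brain and blood differ in how their RNA is made up, and the calls against blood depended on the scaling of the arrays. When each array was centred on a panel of 17 housekeeping genes, every HC minus blood difference shifted down by 1.12 and every PFC minus blood difference by 1.17. Under this panel scaling, only Dkk3, Apc and Fzd3 were higher in brain, in both comparisons, while 32 genes were lower in HC and 37 in PFC. Over all probe sets, 11.7% were then higher and 78.9% lower in HC, and 11.3% and 80% in PFC. Panel-scaled values follow the differences from blood printed for the 42 genes. Since whole blood and whole punches were measured, fewer cells of a type and less RNA per cell cannot be told apart.

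The samples carried the markers of blood and of brain. A gene is called present where its tissue mean is above 6.2, the intensity cut-off of the methods. The methods also required a detection p-value, which was not applied here, so presence here is not that of the paper. All 10 T cell, 3 B cell, 6 neutrophil, 5 monocyte, 4 erythroid and 3 platelet markers were present in blood. The mean level of the erythroid markers was 12.1 to 12.3 there. All 7 neuronal and 6 astrocyte markers were present in both brain regions. All 6 markers of hippocampal fields were higher in HC than in PFC. The 2 measured markers of neocortical layers were present in both regions and not called between them, so they did not set PFC apart. Rank correlations between arrays were lower within blood (Spearman's rho across probe sets 0.957 to 0.968) than within HC (0.995 to 0.996) or PFC (0.995 to 0.996). Accordingly, the median SD of the 42 genes was 0.23 in blood, 0.0963 in HC and 0.0794 in PFC. As a second, lower limit, the background of each tissue was set at the 95th percentile of 1298 probe sets that read receptors of smell, taste and pheromones, which was 5.53 in blood, 4.88 in HC and 4.85 in PFC. These receptor probe sets were themselves lower in HC than in blood by a median of 0.50 and in PFC by 0.52 (log2), so small negative differences of dim genes lie within what these probe sets showed. A gene with a tissue mean at or under this limit is called not above background there.

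Of the 42 genes, 23 were present in blood, 19 in HC and 20 in PFC, that is 54.8%, 45.2% and 47.6%, against 46.9%, 47.2% and 47.1% of all probe sets. A total of 14 genes were present in all 3 tissues, among them the whole beta-catenin complex (Apc, Axin1, Axin2, Ctnnb1), the nuclear factors Lef1 and Tcf7l1, the ligands Wnt2, Wnt4, Wnt7b and Wnt9b, and the receptors Fzd2, Fzd5, Fzd9 and Lrp6. The 8 genes present in blood alone were the ligands Wnt1, Wnt3, Wnt3a, Wnt6 and Wnt10b, the antagonists Sfrp4 and Sfrp5, and Tcf7. All but Sfrp5 and Tcf7 had blood means close to the cut-off, from 6.21 to 6.47. Present in both brain regions but not in blood were Dkk3, Fzd3 and Fzd4. HC alone held Sfrp2 and Fzd8, PFC alone Wnt10a and Wnt16, and Wnt9a was present in blood and PFC. The remaining 12 genes (Dkk1, Dkk2, Dkk4, Sfrp1, Wnt2b, Wnt5a, Wnt5b, Wnt8a, Wnt8b, Fzd1, Fzd6 and Lrp5) were at or under the cut-off everywhere, and of these Dkk1, Dkk2, Wnt2b and Wnt8a were also not above background in any tissue.

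Among the 17 ligands, 10 were present in blood, 4 in HC and 7 in PFC. Wnt2, a ligand of the beta-catenin branch, read 6.82, 7.03 and 6.82 in the blood of rats 2, 5 and 7, 8.13, 8.07 and 8.38 in their HC and 7.29, 7.23 and 6.95 in their PFC. HC lay above both other tissues on every array, and blood and PFC overlapped. In HC it was 1.31 ± 0.128 above blood (log2 ± standard error, n = 3, adjusted p = 1.0e-05), of which 0.19 was left under panel scaling, and in PFC the difference of 0.27 was not called and turned to −0.90 under panel scaling. Wnt4, which is known from kidney and gonad development in the mouse, read 6.35, 6.56 and 6.34 in blood, 7.64, 7.37 and 7.67 in HC and 6.32, 6.56 and 6.58 in PFC. Again only HC stood apart: it was 1.15 ± 0.122 above blood (adjusted p = 1.9e-05; 0.02 under panel scaling), while PFC differed from blood by 0.07, which was not called and turned to −1.10 under panel scaling. Wnt7b, which promotes dendrite growth in cultured rodent hippocampal neurons, read 7.18, 7.09 and 6.95 in blood, 8.11, 8.13 and 8.33 in HC and 7.64, 7.75 and 7.78 in PFC. The 3 tissues did not overlap, in the order blood, PFC and HC. It was above blood by 1.12 ± 0.103 in HC and by 0.65 ± 0.103 in PFC (adjusted p = 6.5e-06 and 3.0e-04), but under panel scaling HC and blood were level (−0.002) and PFC was 0.52 below blood (−0.52).

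**Figure D1:**
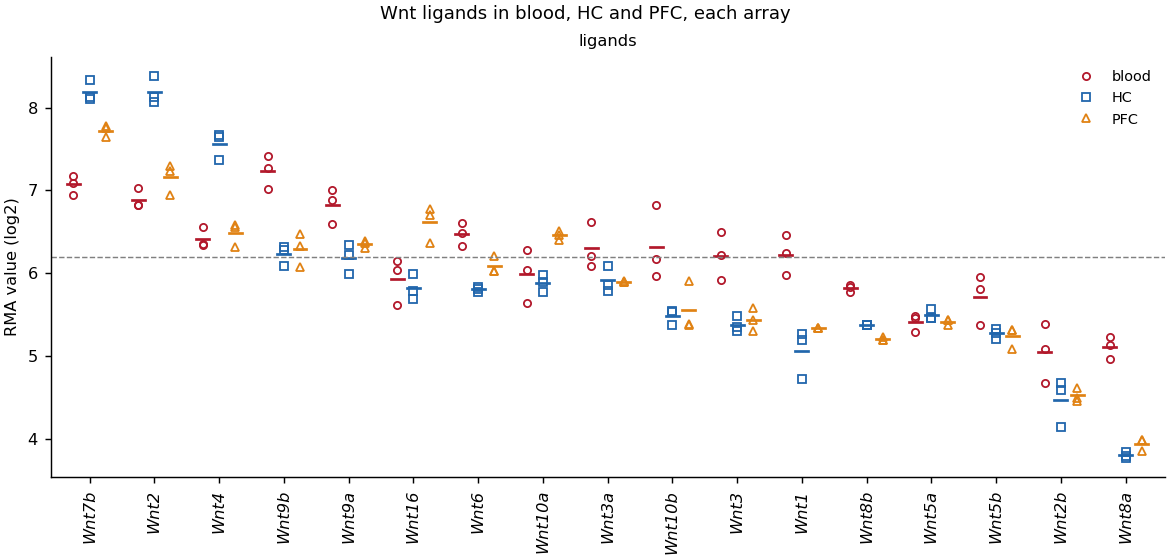
RMA values (log2) of the 17 Wnt ligands on each of the 9 arrays, by gene on the horizontal axis, with bars at the mean of 3 arrays for blood, HC and PFC and a dashed line at the presence cut-off of 6.2. Wnt2 and Wnt4 stand out in HC, at 7.37 or more on every HC array, while most other ligands lie at or under the cut-off in brain. Levels of different genes are read by different probes and are not comparable with each other.

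The ligands Wnt16 and Wnt10a were raised in PFC alone. Wnt16, known from bone in the mouse, read 6.04, 6.15 and 5.62 in blood, 5.99, 5.79 and 5.69 in HC and 6.37, 6.78 and 6.70 in PFC. Every PFC array lay above all others, by 0.68 ± 0.166 on average against blood (adjusted p = 4.4e-03), although panel scaling turned the difference to −0.49, and the call was lost without rat 7 (adjusted p = 0.0512). Wnt10a, known from tooth and skin appendages, read 6.04, 5.64 and 6.28 in blood, 5.98, 5.90 and 5.78 in HC and 6.51, 6.40 and 6.46 in PFC. PFC again exceeded every other array, by 0.47 ± 0.151 against blood (adjusted p = 0.017; −0.70 under panel scaling). That call was lost without the PFC array of rat 2 (0.0518), without rat 2 (0.10) and without rat 5 (0.0696). In HC neither gene was called against blood (−0.11 and −0.10), and under panel scaling both were called lower (−1.24 and −1.22).

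Of the 17 ligands, 11 were lower in HC and 11 in PFC than in blood, and Wnt5a was not called in either. Under panel scaling 14 were lower in HC and 17 in PFC. Wnt1, a patterning signal of the embryonic midbrain in the mouse, read 6.24, 6.46 and 5.98 in blood, 4.72, 5.27 and 5.19 in HC and 5.34 on each PFC array, so both brain regions lay under every blood array. It was lower than blood by −1.17 ± 0.164 in HC and −0.89 ± 0.164 in PFC (adjusted p = 1.3e-04 and 8.0e-04; −2.29 and −2.06 under panel scaling). Wnt9b, an inducer of kidney tubules in the mouse, read 7.27, 7.42 and 7.02 in blood, 6.28, 6.32 and 6.09 in HC and 6.47, 6.08 and 6.33 in PFC. Both brain regions lay under every blood array, at −1.01 ± 0.14 and −0.95 ± 0.14 (adjusted p = 1.2e-04 and 1.9e-04; −2.13 and −2.12 under panel scaling). Wnt8a read 5.13, 4.97 and 5.23 in blood, 3.77, 3.79 and 3.84 in HC and 3.99, 3.99 and 3.85 in PFC. It was called lower in both regions, but no array of any tissue exceeded its background limit, so no fold is given, and the same holds for Wnt2b, whose calls were also lost in 5 of 12 fits without 1 array or 1 rat in HC (adjusted p up to 0.0996) and 6 of 12 in PFC (up to 0.187). The other ligands called lower in both regions were Wnt3, Wnt3a, Wnt5b, Wnt6, Wnt8b, Wnt9a and Wnt10b, with differences between −0.84 and −0.38 (−1.96 to −1.52 under panel scaling). Of these, Wnt3 and Wnt8b kept both calls in all 12 fits without 1 array or 1 rat. Wnt3a lost its call in 5 of these fits in HC (adjusted p up to 0.231) and 6 in PFC (up to 0.171), where leaving out the blood array of rat 7 took the differences from −0.39 to −0.24 and from −0.41 to −0.25, and Wnt5b in 5 and 3 (up to 0.144 and 0.166). In PFC the calls of Wnt6 (−0.28, 0.0747) and Wnt10b (−0.42, 0.108) were lost without rat 5, and that of Wnt9a without rat 5 (0.071) and without rat 7 (0.0921).

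Of the 17 ligands, 8 lie next to another measured ligand in the genome, and 7 of the 10 present in blood do. In the gene order of the rat assembly GRCr8, 4 pairs of the measured ligands were direct neighbours: Wnt3a and Wnt9a as well as Wnt9b and Wnt3 on chromosome 10, Wnt10b and Wnt1 on chromosome 7, and Wnt6 and Wnt10a on chromosome 9. All 5 ligands present in blood alone belonged to these pairs. Their blood means were close to the cut-off, between 6.21 for Wnt3 and 6.47 for Wnt6. In 3 pairs both genes were called lower in HC and PFC than in blood, among them Wnt3a, Wnt9a and Wnt10b with the unstable calls given above, whereas in the fourth Wnt6 was lower (−0.67 and −0.38; −1.79 and −1.55 under panel scaling) and Wnt10a was not called in HC and higher in PFC, a direction that panel scaling reversed.

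Of the 10 receptors, 5 were higher than blood in each brain region and 4 lower, with Lrp5 not called. Under panel scaling 1 was higher and 6 lower in HC, and 1 higher and 7 lower in PFC. Fzd3, which guides axons in the developing mouse brain, read 4.72, 4.75 and 4.93 in blood, 8.56, 8.54 and 8.54 in HC and 8.82, 8.86 and 8.93 in PFC. Blood was not above background, so the difference is a limit: at least 8.06-fold higher in HC and at least 10.1-fold in PFC (adjusted p = 8.6e-10 and 5.5e-10), which under panel scaling leaves at least 1.89 and 2.17 on the log2 scale. Fzd4, a receptor for Wnts and for Norrin in brain and retinal vessels, read 5.37, 4.91 and 5.90 in blood, 6.63, 6.63 and 6.66 in HC and 6.72, 6.67 and 6.63 in PFC. Blood spread widely, with rat 7 alone above background, but stayed under both brain regions. Since the blood mean was not above background, only a limit holds: with each blood array raised to the background limit where it lay below, Fzd4 was at least 1.98-fold higher in HC and at least 2.02-fold in PFC (adjusted p of the measured values 3.5e-04 and 3.0e-04). Under panel scaling these limits fell below zero (−0.14 and −0.15). The co-receptor Lrp6 read 7.52, 6.91 and 7.15 in blood, 8.41, 8.28 and 8.31 in HC and 8.18, 8.15 and 8.15 in PFC. It was above blood by 1.14 ± 0.142 in HC and 0.96 ± 0.142 in PFC (adjusted p = 5.8e-05 and 1.8e-04), with no overlap, but panel scaling left 0.01 in HC and turned PFC to −0.21. Fzd6 and Fzd8 were also called higher in both regions. Fzd6 was not above background in blood, so that it was at least 1.35-fold higher in HC and at least 1.03-fold in PFC, and the Fzd8 call in PFC was lost without the PFC array of rat 7 (0.0538) and without rat 5 (0.107). Panel scaling turned all 4 of these differences negative (−0.03 and −0.46 for Fzd6, −0.46 and −0.80 for Fzd8).

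Fzd5, Fzd2, Fzd9 and Fzd1 were lower in both brain regions. Fzd5 read 6.92, 7.42 and 7.10 in blood, 6.43, 6.37 and 6.46 in HC and 6.46, 6.0 and 6.2 in PFC. It differed from blood by −0.73 ± 0.15 and −0.93 ± 0.15 (adjusted p = 1.6e-03 and 3.6e-04; −1.85 and −2.10 under panel scaling), without overlap. The others were closer to blood. Fzd2 read 7.63, 7.81 and 7.27 in blood, 7.13, 7.15 and 7.15 in HC and 7.15, 7.18 and 7.11 in PFC, and differed by −0.42 in each region (adjusted p = 0.0143 and 0.015). Fzd9 read 7.01, 6.67 and 6.97 in blood, 6.37, 6.54 and 6.64 in HC and 6.54, 6.54 and 6.46 in PFC, at −0.36 and −0.37 (adjusted p = 0.0172 and 0.0161). Fzd1, at 5.67, 5.64 and 5.75 in blood, 5.45, 5.43 and 5.43 in HC and 5.25, 5.28 and 5.39 in PFC, differed by −0.25 and −0.38 (adjusted p = 0.0209 and 2.7e-03). In these 3 genes brain and blood did not overlap, and the panel-scaled differences ran from −1.59 to −1.38. Their calls were not stable to leaving out animals: both Fzd2 calls were lost without rat 2 (0.121 and 0.116) and without rat 5 (0.102 and 0.0968), both Fzd9 calls without rat 2 (0.192 and 0.0883) and without rat 7 (0.0641 and 0.121), and the Fzd1 call in HC without any 1 of the 3 HC arrays or of the rats (0.0553 to 0.107). Fzd9 was also lost in HC without the HC array of rat 2 (0.0751) and in PFC without the PFC array of rat 7 (0.0545).

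**Figure D2:**
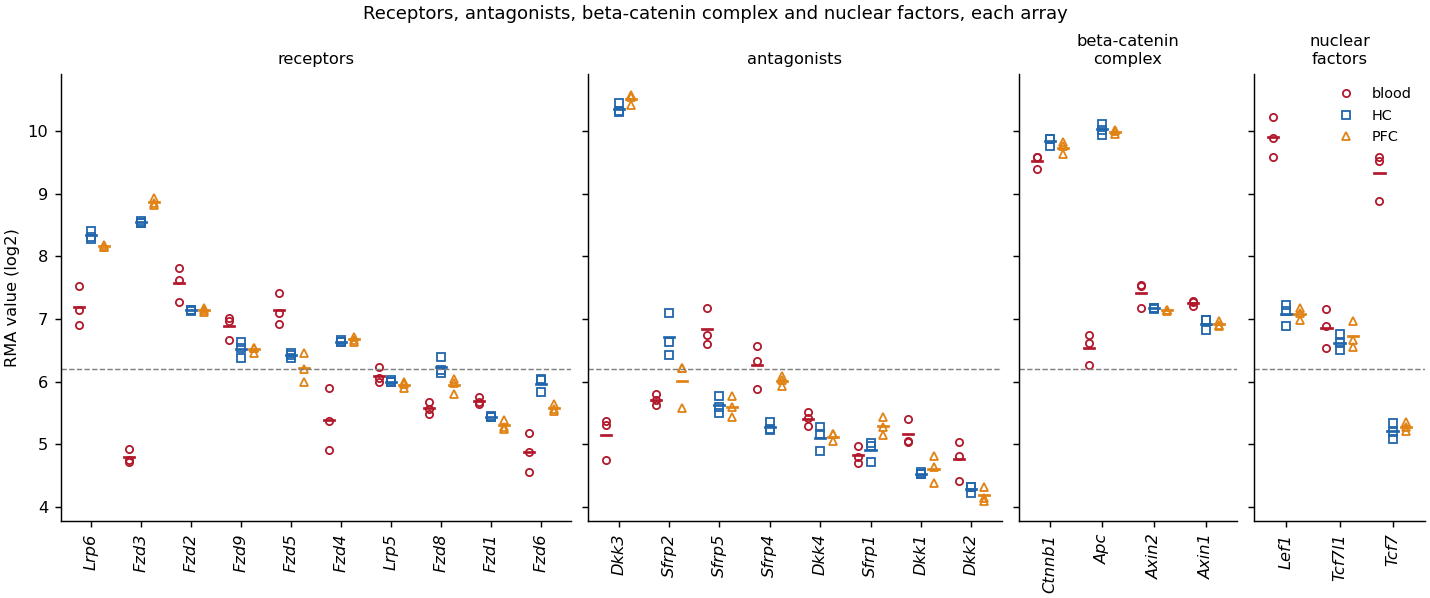
RMA values (log2) of the 10 receptors, 8 antagonists, 4 genes of the beta-catenin complex and 3 nuclear factors on each of the 9 arrays, with bars at the mean of 3 arrays per tissue and a dashed line at the presence cut-off of 6.2. Dkk3, Fzd3 and Apc lie far above blood in both brain regions, and Lef1 and Tcf7 far below it. Levels of different genes are not comparable with each other.

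Dkk3 showed the widest difference of the 42 genes in the deposited values, and Tcf7, described below, under panel scaling. Dickkopf proteins (Dkk) block the co-receptors, with Dkk3 as a divergent member, and secreted Frizzled-related proteins (Sfrp) bind Wnts directly. Dkk3 read 4.75, 5.37 and 5.31 in blood, 10.32, 10.31 and 10.45 in HC and 10.42, 10.58 and 10.55 in PFC. Blood was not above background, and Dkk3 was at least 28.4-fold higher in HC and at least 31.6-fold in PFC (adjusted p = 2.8e-09 and 2.2e-09), which under panel scaling leaves at least 3.70 and 3.81 on the log2 scale. Sfrp2 read 5.70, 5.62 and 5.80 in blood, 6.42, 6.64 and 7.10 in HC and 5.58, 6.22 and 6.22 in PFC. It was 1.01 ± 0.209 above blood in HC (adjusted p = 1.6e-03), which panel scaling turned to −0.11, and was not called in PFC (0.30; −0.87 under panel scaling), where rat 2 lay with blood. With arrays weighted by tissue, the Sfrp2 call in HC was lost (adjusted p = 0.0521). Sfrp1 read 4.80, 4.98 and 4.70 in blood, 5.02, 4.71 and 4.98 in HC and 5.28, 5.43 and 5.15 in PFC. It was called higher in PFC (0.46 ± 0.126, adjusted p = 8.1e-03), but blood was not above background, the PFC mean lay below the background limit of blood, panel scaling turned the difference to −0.71, and the call was lost without rat 2 (0.0635).

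Sfrp5 was lower than blood in both brain regions, and Sfrp4 in HC only. Sfrp5 read 6.60, 6.75 and 7.18 in blood, 5.59, 5.77 and 5.50 in HC and 5.77, 5.44 and 5.59 in PFC. It was lower by −1.22 ± 0.16 in HC and −1.24 ± 0.16 in PFC (adjusted p = 8.1e-05 and 7.3e-05; −2.35 and −2.41 under panel scaling), without overlap. Sfrp4 read 6.33, 6.57 and 5.88 in blood, 5.22, 5.35 and 5.25 in HC and 6.09, 6.02 and 5.93 in PFC. HC lay under all blood arrays (−0.99 ± 0.159, adjusted p = 3.3e-04; −2.11 under panel scaling), whereas PFC overlapped with blood and was not called (−0.25), except under panel scaling (−1.41, adjusted p = 1.2e-04). Dkk1, which blocks Lrp6, read 5.40, 5.06 and 5.03 in blood, 4.52, 4.55 and 4.52 in HC and 4.63, 4.82 and 4.38 in PFC. Dkk2 read 4.42, 4.82 and 5.04 in blood, 4.23, 4.31 and 4.31 in HC and 4.32, 4.10 and 4.15 in PFC. Both were called lower in both regions, yet not above background in any tissue, so no fold is given. The call was lost for Dkk1 in PFC without rat 2 (0.0568) and for Dkk2 in HC without the HC array of rat 2 (0.0511), without rat 5 (0.106) and without rat 7 (0.12), and in PFC without rat 5 (0.0877) and rat 7 (0.0793). Dkk4, also not above background in blood, was called lower in both regions, with rat as a block only in HC (adjusted p = 0.0454 and 0.0548). Its call was lost in 10 of 12 fits without 1 array or 1 rat in HC (up to 0.169) and in 8 of 12 in PFC (up to 0.309), and without the HC array of rat 7 the HC difference went from −0.31 to −0.20.

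In the beta-catenin complex, Apc had by far the widest difference from blood. Apc, a scaffold of the complex that also binds microtubules in neurons, read 6.62, 6.26 and 6.74 in blood, 10.02, 9.94 and 10.12 in HC and, in PFC, 9.96 in rat 7 and 10.01 in rat 5 with rat 2 between them. It was 11.2-fold higher in HC and 10.9-fold in PFC (log2 3.49 ± 0.128 and 3.45 ± 0.128, adjusted p = 1.02e-08 and 1.05e-08; 2.37 and 2.28 under panel scaling), and the brain regions overlapped. Ctnnb1, beta-catenin itself, read 9.58, 9.39 and 9.59 in blood, 9.87, 9.77 and 9.88 in HC and 9.63, 9.76 and 9.82 in PFC. It was called higher in HC (0.32 ± 0.0978, adjusted p = 0.0141) and not in PFC (0.22, 0.0676), and panel scaling turned these to −0.80 and −0.95. The HC call was lost without the HC arrays of rat 2 (0.0507) or rat 7 (0.0508) and without any 1 of the rats (0.0536 to 0.0582). Axin1 read 7.27, 7.21 and 7.29 in blood, 6.98, 6.82 and 6.98 in HC and 6.97, 6.91 and 6.89 in PFC, which was −0.33 ± 0.087 in each region (adjusted p = 6.5e-03 and 6.4e-03; −1.45 and −1.50 under panel scaling). The PFC call was lost without rat 7 (0.0618).

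Axin2 is both a brake on the pathway and one of its target genes. It read 7.53, 7.17 and 7.55 in blood, 7.18, 7.18 and 7.16 in HC and 7.13, 7.14 and 7.14 in PFC. The brain arrays were nearly identical, and the blood of rat 5 lay among those of HC, so that HC overlapped with blood and was not called (−0.25, adjusted p = 0.0676; −1.37 under panel scaling). PFC was called lower (−0.28 ± 0.112, adjusted p = 0.044; −1.45 under panel scaling), but not with rat as a block (0.0598), and the call was lost in 10 of 12 fits that left out 1 array or 1 rat (0.0649 to 0.246), that is all but those without the blood array of rat 5 or without rat 5.

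Of the 3 nuclear factors, Lef1 and Tcf7 had the widest negative differences of the 42 genes. Lef1 read 9.89, 9.58 and 10.23 in blood, 6.89, 7.13 and 7.22 in HC and 7.09, 7.18 and 6.99 in PFC. It was 7.08-fold lower in HC and 7.04-fold lower in PFC (log2 −2.82 ± 0.162 and −2.81 ± 0.162, adjusted p = 2.13e-07 and 2.15e-07; −3.95 and −3.98 under panel scaling). Tcf7, which encodes TCF-1, a factor of T cell development, read 9.58, 8.89 and 9.53 in blood, 5.08, 5.34 and 5.20 in HC and 5.27, 5.35 and 5.21 in PFC. It was 17.5-fold lower in HC and 16.6-fold lower in PFC (log2 −4.13 ± 0.173 and −4.06 ± 0.173, adjusted p = 2.4e-08 and 2.6e-08; −5.25 and −5.23 under panel scaling). Lef1 was present in every tissue and Tcf7 in blood alone. In both genes the blood of rat 5 was the lowest of the 3. Markers of T cells moved with them: the mean level of 10 T cell genes was 9.32, 8.74 and 9.41 in the blood of rats 2, 5 and 7, again lowest in rat 5, against 5.01 to 5.06 in HC and 4.92 to 5.00 in PFC. All 10 were lower in both brain regions, and 3 of 10 were not above background there, while Cd3e was present in HC and 2.10 higher there than in PFC. The part of T cells in the Lef1 and Tcf7 differences was not tested.

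Tcf7l1, which mostly represses Wnt targets, gave a result that depended on the probe set. The probe set used here (10863277) read 7.16, 6.53 and 6.89 in blood, 6.76, 6.61 and 6.50 in HC and 6.97, 6.55 and 6.66 in PFC. The tissues overlapped and neither difference from blood was called (−0.23 and −0.13; −1.36 and −1.30 under panel scaling). A second probe set (10863258) read 6.46, 6.62 and 6.80 in blood, 5.36, 5.35 and 5.50 in HC and 5.69 on every PFC array, lower by −1.22 ± 0.106 and −0.94 ± 0.106 (adjusted p = 4.2e-06 and 2.8e-05; −2.35 and −2.11 under panel scaling). The third (10863275) was not above background in blood.

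The promoters of Lef1, Tcf7 and Axin2 are shown because the former encode the factors that read TCF/LEF motifs and the latter is a target read by them. Sequences are RefSeq promoter windows of assembly GRCr8, from 250 bases before to 50 after the annotated start, printed 5′ to 3′ on the strand of the gene. Capitals mark TCF/LEF words (CTTTGAA as well as CTTTGAT, and also CTTTGTA or CTTTGTT) and GC boxes (GGGCGG), each searched on both strands, so that GC boxes of the other strand appear as CCGCCC. Lef1 lies at chr2:222340463-222340762 (+), Tcf7 at chr10:36954230-36954529 (-) and Axin2 at chr10:94398535-94398834 (+).
Lef1: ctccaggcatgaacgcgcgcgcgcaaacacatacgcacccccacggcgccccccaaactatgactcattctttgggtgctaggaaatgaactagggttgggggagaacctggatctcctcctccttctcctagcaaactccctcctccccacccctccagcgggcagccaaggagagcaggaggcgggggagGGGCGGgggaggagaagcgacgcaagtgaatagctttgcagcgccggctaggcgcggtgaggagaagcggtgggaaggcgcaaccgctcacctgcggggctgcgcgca
Tcf7: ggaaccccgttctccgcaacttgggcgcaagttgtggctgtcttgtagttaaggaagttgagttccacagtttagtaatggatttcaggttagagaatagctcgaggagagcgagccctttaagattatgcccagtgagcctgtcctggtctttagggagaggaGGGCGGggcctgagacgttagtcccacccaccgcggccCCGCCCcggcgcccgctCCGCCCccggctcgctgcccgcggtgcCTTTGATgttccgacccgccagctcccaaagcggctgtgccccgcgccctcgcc
Axin2: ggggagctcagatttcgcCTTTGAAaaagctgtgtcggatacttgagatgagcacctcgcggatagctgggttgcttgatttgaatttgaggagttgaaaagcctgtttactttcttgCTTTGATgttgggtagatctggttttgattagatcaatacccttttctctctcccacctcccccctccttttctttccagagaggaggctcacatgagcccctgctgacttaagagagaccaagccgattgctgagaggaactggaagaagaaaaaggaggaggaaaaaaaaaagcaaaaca
In these windows Axin2 held 2 TCF/LEF words, which begin 232 and 132 bases before the start, and no GC box. Tcf7 held 1 TCF/LEF word, 4 bases before the start, and 3 GC boxes, and Lef1 held 1 GC box and no TCF/LEF word. Of the 42 genes, 28 had a promoter window in the table used. TCF/LEF words were found in 6 of these 28 (21.4%), against 17.1% of all 33469 windows, and GC boxes in 15 (53.6%), against 33.1%. The median GC content was 65.3%, against 51.7% over all windows. A match is a run of letters and not a measured binding site.

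**Figure D3:**
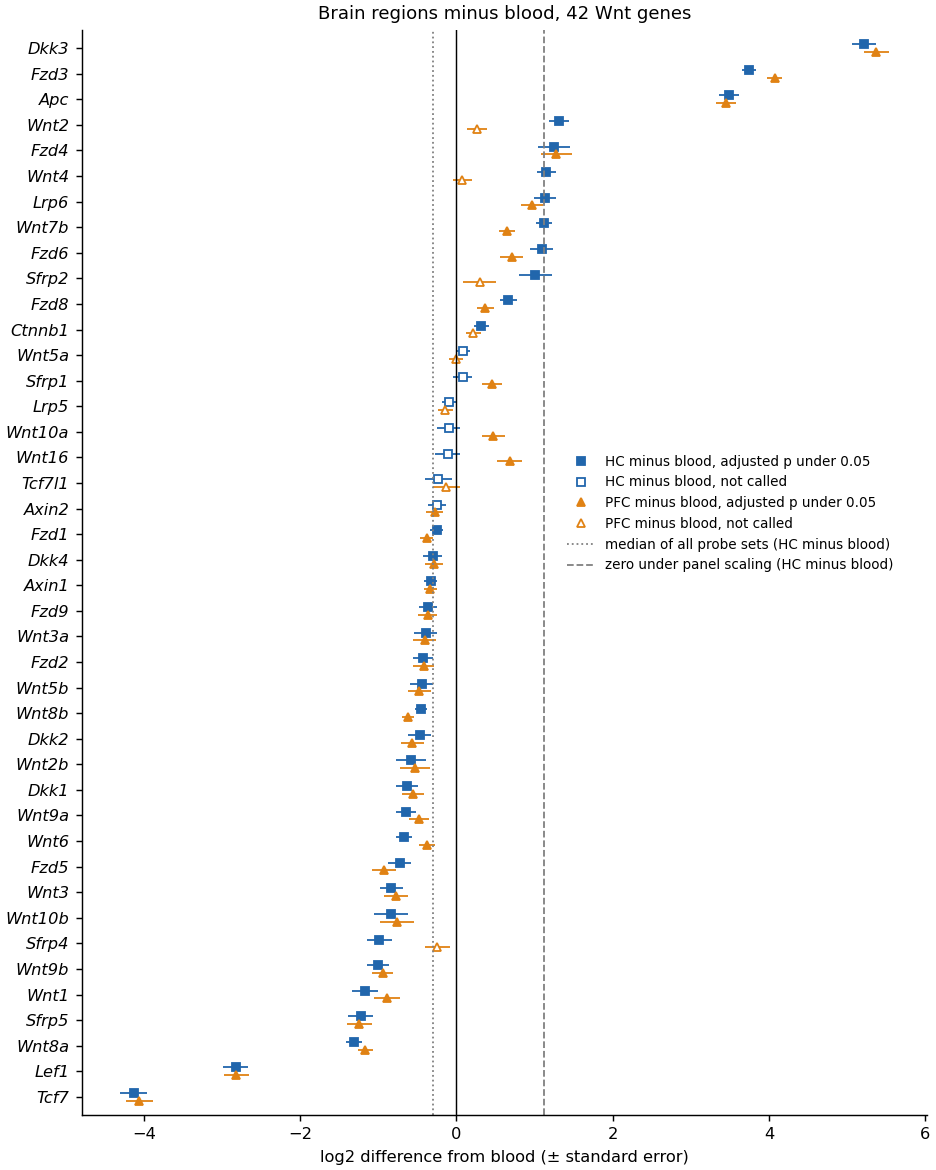
Difference of HC (squares) and PFC (triangles) from blood for each of the 42 genes, as log2 with the standard error as bars, ordered by the HC difference. Filled symbols passed an adjusted p of 0.05. The dotted line marks the median of all probe sets (−0.30) and the dashed line (1.12) where zero would lie under panel scaling: only Dkk3, Fzd3 and Apc stand well to its right, and Lef1 and Tcf7 are farthest to its left. Dkk3, Dkk4, Fzd3, Fzd4, Fzd6, Sfrp1 and Wnt5a, not above background in blood, are drawn at their measured differences, which are not limits. Dkk1, Dkk2, Wnt2b and Wnt8a are drawn likewise, though filled, and were not above background in any tissue.

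Between HC and PFC, 3 of the 42 genes were higher in HC, 2 were lower and 37 were not called, where 2.11% of all probe sets were higher and 2.33% lower. Wnt4 and Wnt2 were the widest, and their HC and PFC arrays, given above, did not overlap. Wnt4 was 2.10-fold higher in HC (log2 1.07 ± 0.122, adjusted p = 8.3e-04) and higher in each rat, by 1.32, 0.81 and 1.09 in rats 2, 5 and 7. Wnt2 was 2.05-fold higher (1.04 ± 0.128, adjusted p = 1.3e-03), by 0.84, 0.85 and 1.43. Under panel scaling these differences were 1.12 and 1.09 (adjusted p = 3.7e-03 and 5.5e-03). Wnt2 kept its call in all 12 fits that left out 1 array or 1 rat, and Wnt4 in all but the one without rat 2 (0.95, adjusted p = 0.0522).

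The other 3 calls were smaller and less stable. Wnt7b was 0.47 ± 0.103 higher in HC (adjusted p = 0.032), higher in each rat and without overlap, but not called with rat as a block (0.085) or under panel scaling (0.52, 0.065), and leaving out any 1 HC or PFC array or any rat ended the call (0.09 to 0.232). Sfrp4 was −0.74 ± 0.159 lower in HC (adjusted p = 0.0289), in each rat and without overlap, and the call was lost under panel scaling (−0.70, 0.14) and in the same 9 kinds of fit (0.0728 to 0.404). Wnt16 was −0.79 ± 0.166 lower in HC (adjusted p = 0.0257), also in each rat and without overlap, and was not called under panel scaling (−0.75, 0.098) or in 8 of those 9 fits (0.0545 to 0.259), the exception being that without the PFC array of rat 2. Blood arrays spread more than brain arrays and share in the error of this model. On the 6 brain arrays alone, 4 genes were higher and 5 lower in HC, where 6.11% and 6.36% of all probe sets were. All 5 genes above were among them, and Fzd6 joined as higher in HC (0.39, adjusted p = 0.0169) and Wnt10a (−0.57, 2.7e-03), Fzd3 (−0.33, 7.9e-03) and Wnt6 (−0.29, 0.0357) as lower. With rat as a block on these arrays, Fzd6 (0.0545) and Wnt6 (0.0649) were no longer called, while Sfrp2 (0.71, 0.0213) and Fzd8 (0.29, 0.04995) were called higher in HC. Without the block Sfrp2 was not called on all arrays or on the brain arrays alone (0.114 in each). It was higher in HC in each rat, by 0.84, 0.43 and 0.88, and its brain arrays spread widely (SD 0.348 in HC and 0.37 in PFC).

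No gene of the beta-catenin complex and no nuclear factor measured here was called between HC and PFC, and their differences ran from −0.10 for Tcf7l1 to 0.10 for Ctnnb1. The second Tcf7l1 probe set (10863258) differed by −0.28, lower in HC in each rat and without overlap. It was not called on all arrays (0.265), was called on the brain arrays alone (0.0218), and was not called there with rat as a block (0.0541). No exact permutation test was run on single genes, since 3 values against 3 allow no two-sided p under 0.1. Some markers of other cells also differed between the punches. The mean level of 7 choroid plexus markers was 4.97 to 5.09 in PFC. In the HC of rats 2, 5 and 7 it was 6.57, 6.05 and 6.01. Of these 7, Ttr and Clic6 were called higher in HC and 5 were not called. The mean level of 10 meningeal markers was 6.26 to 6.31 in HC and 6.86 to 6.93 in PFC. Ogn, Aldh1a2 and Slc13a4 were called higher in PFC and 7 were not called. Of the 10, 2 were not above background in either region. The mean level of 5 oligodendrocyte markers was 10.36, 10.31 and 10.01 in HC and 9.64, 9.25 and 9.10 in PFC. Of these, 2 were called higher in HC and 3 were not called. The mean level of 6 astrocyte markers was 11.14 to 11.19 in HC and 10.63 to 10.68 in PFC. Only 1 was called higher in HC and 5 were not called. The mean level of 5 thalamus markers was 7.01, 7.26 and 7.31 in HC and 6.60 to 6.65 in PFC. Nr4a2 and Lhx9 were called higher in HC and 3 were not called. All 6 markers of hippocampal fields were higher in HC. The part of these cells in the differences of Wnt2, Wnt4, Wnt7b, Sfrp4 and Wnt16 was not tested.

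**Figure D4:**
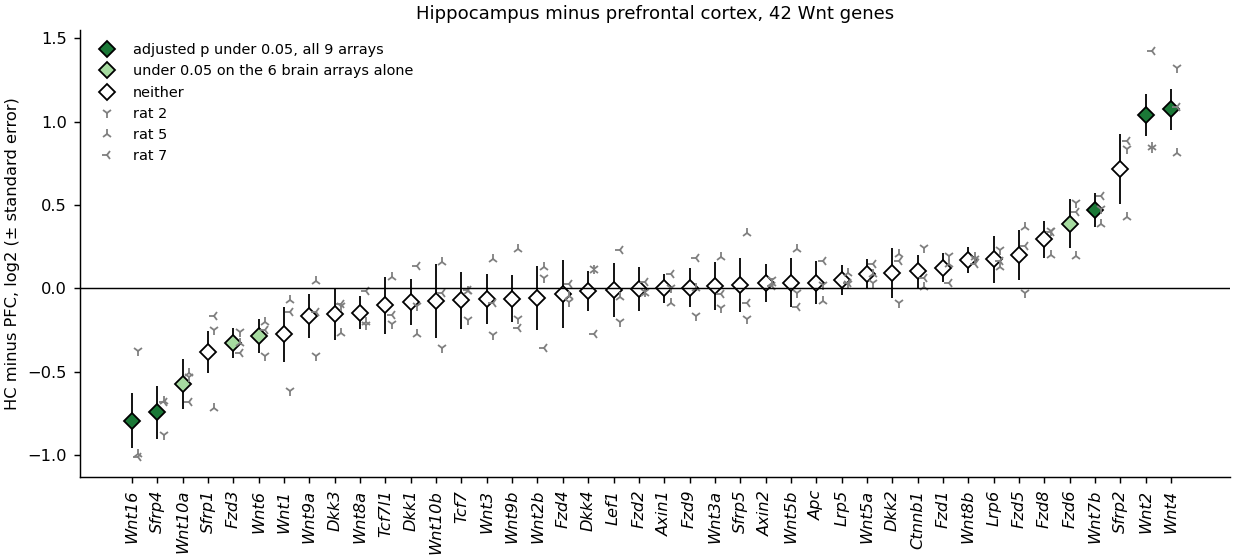
HC minus PFC difference of each of the 42 genes (diamonds, log2, with the standard error as bars), ordered by size, and the difference within each rat (grey marks). Dark diamonds passed an adjusted p of 0.05 on all 9 arrays, light ones on the 6 brain arrays alone and open ones in neither. Wnt2 and Wnt4, at 1.04 and 1.07, lie apart from the rest. In all 5 called genes the 3 rats lie on the same side of zero, as they do in many genes that were not called.

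The promoters of Wnt2 and Wnt4 are shown as those of the 2 ligands with the widest difference between HC and PFC. Wnt2 lies at chr4:47340235-47340534 (-) and Wnt4 at chr5:154797200-154797499 (+) in GRCr8, with capitals as above and overlapping GC boxes run together.
Wnt2: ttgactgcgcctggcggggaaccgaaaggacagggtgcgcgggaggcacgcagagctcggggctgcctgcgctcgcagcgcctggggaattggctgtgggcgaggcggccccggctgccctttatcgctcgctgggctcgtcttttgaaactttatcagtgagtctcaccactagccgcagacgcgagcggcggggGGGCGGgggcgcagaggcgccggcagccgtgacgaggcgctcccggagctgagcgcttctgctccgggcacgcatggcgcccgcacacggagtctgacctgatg
Wnt4: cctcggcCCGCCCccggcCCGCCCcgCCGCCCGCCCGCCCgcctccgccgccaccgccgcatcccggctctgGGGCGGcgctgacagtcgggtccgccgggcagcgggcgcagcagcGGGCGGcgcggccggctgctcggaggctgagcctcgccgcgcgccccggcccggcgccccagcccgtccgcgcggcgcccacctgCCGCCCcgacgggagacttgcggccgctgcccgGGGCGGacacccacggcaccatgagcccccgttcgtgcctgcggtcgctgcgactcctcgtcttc
Neither window held a TCF/LEF word. Wnt2 held 1 GC box and Wnt4 held 9.

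Other genes of the pathway were taken from 8 lists (secretion, R-spondins and their receptors, other antagonists, other receptors, cytoplasm, nuclear cofactors, planar cell polarity and targets), which together had 86 genes on the array. Of these, 42 were higher in HC than in blood and 22 lower, and 41 and 20 in PFC, which under panel scaling became 25 higher and 56 lower in HC and 18 and 54 in PFC. Between the brain regions, 9 were higher in HC and 3 lower, where 2.11% and 2.33% of all probe sets were. Against blood, 29% of all probe sets were higher and 46.5% lower in HC, and 28.7% and 47% in PFC. Under panel scaling these shares were 11.7% and 78.9% in HC and 11.3% and 80% in PFC. The counts of each list below are to be read beside these shares. Of 6 genes that prepare and carry Wnt ligands, 4 were higher than blood and 1 lower in each region, and under panel scaling 4 were higher and 2 lower in HC and 2 and 2 in PFC. Porcn, the enzyme that attaches the lipid to Wnts, was not above background in blood (4.92, 5.17 and 5.30) and reached 8.26, 8.24 and 8.28 in HC and 7.76, 7.69 and 7.63 in PFC, higher by at least 2.72 and 2.16 with blood raised to the background limit (1.60 and 0.99 under panel scaling). Wls, which carries Wnts to the cell surface, read 6.54, 6.26 and 6.73 in blood, 8.85, 8.85 and 8.83 in HC and 9.31, 9.61 and 9.60 in PFC. It was higher than blood by 2.33 and 3.00 (1.21 and 1.83 under panel scaling) and lower in HC than in PFC (−0.67, adjusted p = 0.0209). The glypicans Gpc4 and Gpc3, which bind Wnts at the cell surface, were higher in HC than in PFC by 0.97 and 0.84 (adjusted p = 0.0179 and 0.0148; 0.0533 and 0.0495 under panel scaling). The HC against PFC calls of Wls, Gpc4 and Gpc3 were lost in 8, 7 and 6 of 12 fits without 1 array or 1 rat.

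R-spondins strengthen Wnt signals through Lgr receptors. Rspo2 read 6.26, 6.65 and 5.99 in blood, 9.82, 9.78 and 10.08 in HC and 8.25, 8.85 and 8.91 in PFC, a difference of 3.60 and 2.37 from blood (2.47 and 1.20 under panel scaling) and of 1.22 ± 0.209 between HC and PFC (adjusted p = 9.1e-03), a call lost in 4 of 12 such fits (0.051 to 0.143). The receptor Lgr4 and the ligand Rspo3 were not above background in blood. With blood raised to the limit, Lgr4 was higher in HC and PFC by at least 3.15 and 2.93 and Rspo3 by at least 2.23 and 2.59 (2.02 and 1.76, 1.10 and 1.42 under panel scaling). Among other antagonists, Frzb, which binds Wnts outside the cell, was not above background in blood (5.42, 5.13 and 4.94) and read 7.70, 7.91 and 7.72 in HC and 6.24, 6.51 and 6.53 in PFC. HC exceeded PFC by 1.35 ± 0.141 (adjusted p = 5.0e-04). Sost, known as the bone antagonist sclerostin, was lower than blood by −1.47 in HC and −1.32 in PFC (−2.59 and −2.49 under panel scaling).

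Of 22 cytoplasmic genes, 14 were higher in HC than in blood and 3 lower, which became 6 and 15 under panel scaling. Apc2, a relative of Apc, was 2.13 above blood in HC and 2.05 in PFC (1.01 and 0.89 under panel scaling). Dact2, a cytoplasmic modulator of the pathway, was the gene of these lists with the widest excess in PFC: it read 6.84, 6.75 and 6.36 in blood, 6.22, 6.30 and 6.35 in HC and 8.19, 8.09 and 7.64 in PFC, and HC was 3.21-fold below PFC (−1.68 ± 0.169, adjusted p = 3.9e-04). Of 17 nuclear cofactors, only the co-repressor Tle1 was called between the brain regions. It was not above background in blood and read 8.02, 8.07 and 8.06 in HC against 6.60, 6.75 and 6.84 in PFC (1.32 ± 0.161, adjusted p = 1.3e-03; 0.0817 without rat 2).

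Among the genes of planar cell polarity, the branch without beta-catenin, 8 of 10 were higher than blood and 1 lower in HC, and 5 higher and 1 lower in PFC. Under panel scaling 5 were higher and 4 lower in HC, and 4 higher and 5 lower in PFC. Prickle2 was above blood by 3.93 in HC and 3.75 in PFC (2.80 and 2.59 under panel scaling). Prickle1 was not above background in blood, and against that limit it was higher by at least 3.34 and 3.29 (2.22 and 2.12 under panel scaling). The cadherin Celsr2 followed at 3.08 and 2.98 (1.96 and 1.81). Of 13 genes listed as targets in various tissues, Cd44, an adhesion receptor of leukocytes among other cells, was lower than blood by −3.48 in HC and −3.95 in PFC, with −4.60 and −5.12 under panel scaling. Myc was not above background in either brain region and lower than blood by −2.55 and −2.58 with brain raised to the limit. Prox1, a marker of granule cells of the dentate gyrus that is also among the hippocampal field markers above, was not above background in blood and read 8.57, 8.70 and 8.55 in HC against 5.42, 5.49 and 5.66 in PFC (3.09 ± 0.243, adjusted p = 9.6e-05).

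**Figure D5:**
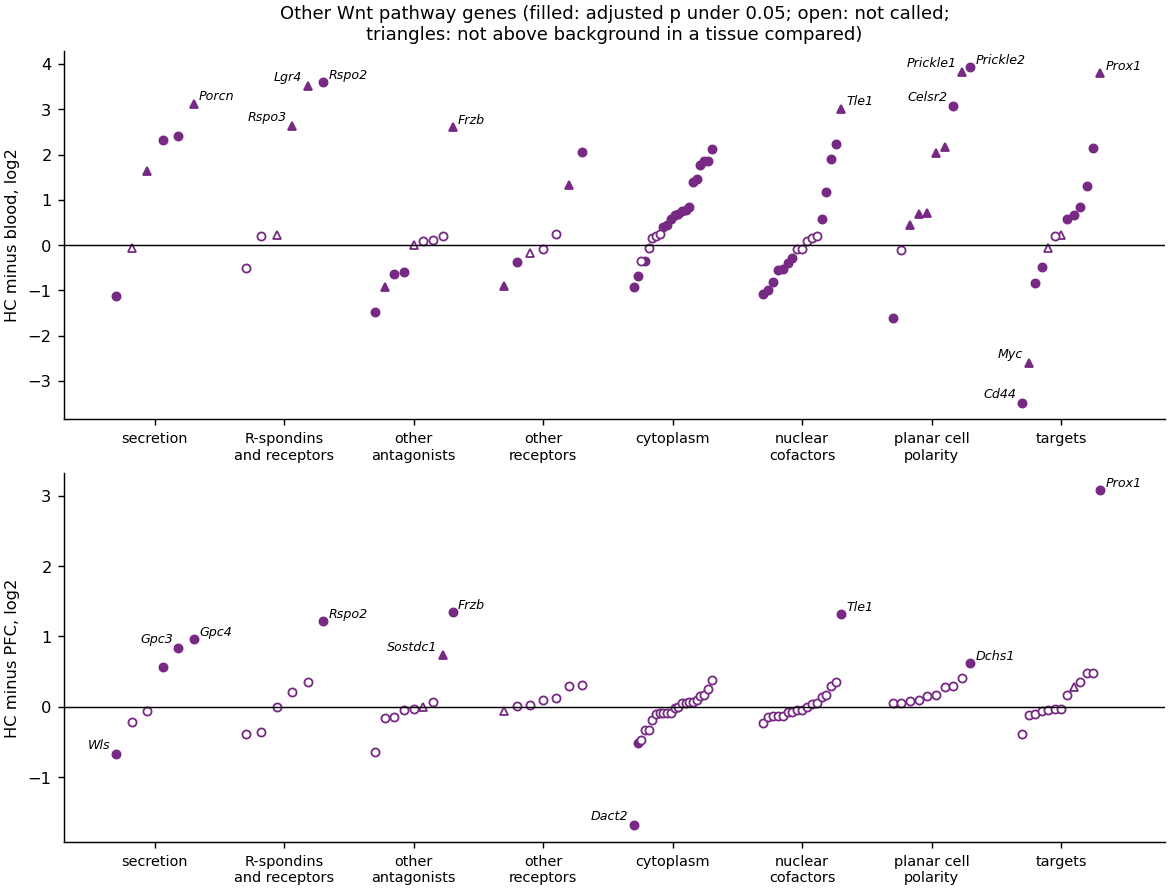
Log2 difference of HC from blood (top) and from PFC (bottom) for the 86 other genes of the pathway, by list, each point 1 gene. Filled points passed an adjusted p of 0.05 and open points did not, and triangles mark genes not above background in a tissue compared, drawn at measured differences that are not limits. Genes with a wide difference are named: of the circles in the top panel Prickle2 (3.93) and Rspo2 (3.60) lie highest and Cd44 (−3.48) lowest, and between the brain regions Prox1 (3.09), Frzb (1.35) and Dact2 (−1.68) lie farthest from zero. The top panel would shift down by 1.12 under panel scaling.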

How the data were processed

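The authors quantile normalized the array intensities, summarized them per probe set with RMA (affymetrix power tools per the methods) and deposited log2 values, which ranged from 1.53 to 14.0. Of 29215 probe sets, 1 lacked a value. The methods' detection p-values were left out. Gene symbols came from the platform annotation. The genes and gene lists were chosen with earlier results of these data known.

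Differences between tissues were fitted with limma 3.58.1 in R 4.3.3 (tissue as a factor of 3 levels, 9 arrays, empirical Bayes, no filter on dim probe sets), with Benjamini-Hochberg adjustment over all 29214 probe sets. All adjusted p-values come from limma. The number of arrays, 3 per tissue, limits the precision. Array values were given, per role and comparison, for up to 3 genes with the widest difference in each direction among those called and moving the same way in each rat, and for the nuclear factors. Of the other lists, up to 3 called genes per comparison could be named. The procedure was tested on simulated data, for HC against PFC only and with the same spread in every tissue. Since blood spread more than brain here, that test does not cover the unequal spread.

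Equal numbers mark the same rat, so the samples are paired by design. The deviations of a rat from the tissue means correlated at 0.0936 to 0.226 between HC and PFC and at −0.0542 to 0.0484 between blood and brain, and the random block gave a consensus correlation of −0.0036 (statmod 1.5.0). Rat as a fixed replicate block left 12 genes higher and 23 lower in HC against blood, 11 and 21 in PFC against blood and 2 and 2 in HC against PFC.

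Alternatives covered the filter, the block, the arrays in the fit, 2 scalings, the variance model, the threshold, the probe set, the presence cut-off, and fits without 1 array or 1 rat. The background limit was first set on 229 receptor genes' probe sets (blood 5.25, HC 4.88, PFC 4.78), and those under newer olfactory symbols were added after seeing the data, as were the panel-scaled limits of genes not above background in blood. Promoter windows are from RefSeq (GRCr8). Figures were drawn with matplotlib 3.10.9.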

Additional observations from a re-analysis of the deposited data

How the results depend on the processing

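Of the single-gene differences recomputed under each alternative, 2473 counted as the same, 187 lost their call, 46 gained one, 14 moved with no test and 19 reversed. A change of sign counted as a reversal only where the gene was called before or after it. Small differences that changed sign without a call are therefore among those counted as the same. Of the calls, 26 of 35 in HC against blood, 17 of 34 in PFC against blood and 1 of 5 between HC and PFC held in all 12 fits without 1 array or 1 rat. Leaving out an array or a rat leaves fewer samples for the test.

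Centring on the housekeeping panel, which shifts all differences from blood by construction, gave 3430 probe sets higher and 23042 lower in HC and 3299 and 23379 in PFC, and 3 of the 42 genes higher in each and 37 lower in PFC. It reversed HC minus blood for Sfrp1 (−1.04), Sfrp2 (−0.11), Ctnnb1 (−0.80), Wnt5a (−1.04), Wnt7b (−0.00203), Fzd6 (−0.0295) and Fzd8 (−0.46), and PFC minus blood for Sfrp1 (−0.71), Sfrp2 (−0.87), Ctnnb1 (−0.95), Wnt10a (−0.70), Wnt16 (−0.49), Wnt2 (−0.90), Wnt4 (−1.10), Wnt7b (−0.52), Fzd6 (−0.46), Fzd8 (−0.80) and Lrp6 (−0.21). PFC minus blood of Sfrp1 also reversed (−0.25) with values under the background limit raised to it. Between HC and PFC the panel gave 1 gene lower, Wnt10a (adjusted p = 0.0344), which was not called without it (0.0749). Sfrp4 and Wnt16 were no longer called.

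With only probe sets above 6.2 in a tissue, so fewer probe sets tested, 6133 were lower in HC and 6197 in PFC than in blood, 15 of the 42 genes in each, and 4 were lower in HC than in PFC. An adjusted p under 0.01 left 15 genes lower in each region and, for HC minus PFC, 325 and 363 probe sets and 0 genes lower (limma, 2 at 0.05). The HC minus PFC counts of probe sets higher and lower were 1785 and 1859 on the brain arrays alone (5 genes lower), 1499 and 1493 there with rat as a replicate block (5 genes higher and 4 lower), and 2050 and 2004 with array weights by tissue (7 and 6). These weights also ended 15 calls against blood. In HC they were those of Sfrp2 (adjusted p = 0.0521), Ctnnb1 (0.0608), Fzd1, Fzd9, Wnt2b, Wnt3a and Dkk4. In PFC they were those of Sfrp1, Fzd8, Fzd9, Axin2, Wnt2b, Wnt3a, Wnt9a and Dkk4. Without 1 array or rat, probe sets higher and lower numbered 194 to 1041 and 220 to 1086 in HC against PFC, with 1 to 3 genes higher and 0 to 4 lower, and 14 to 22 genes were lower in PFC than in blood. Beyond the calls given in the report, the block changed no call of the 42 genes, on all arrays or on the brain arrays alone. At a presence cut-off of 7.2, 7 genes were present in blood, 8 in HC and 6 in PFC, and against the background limit, as first set and as widened, 38 in HC and 38 in PFC. Apart from what the construction of an alternative explains, the cause was not tested.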
